A study of Mus musculus with 5 samples.

Results

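The contractile apparatus of smooth muscle and myofibroblasts was examined through 10 genes of 24421 in the tables, chosen by symbol and not by their values: Acta2, Actg2, Tagln, Cnn1, Myl9, Tpm1, Tpm2, Cald1, Myh11, and Srf. Each symbol had 1 row in both tables, so all 10 were measured in all 5 libraries. The libraries were 1 each of MEFs (fibroblasts grown from mid-gestation CF-1 mouse embryos, in medium with FBS), iPSCs (a reprogrammed line), untreated V6.5 cells (an established mESC line), V6.5 cells stably expressing a non-targeting control shRNA (NTC), and V6.5 cells stably expressing an shRNA against Gldc (shGldc). The labels place the iPSCs and all V6.5 cells in feeder-independent culture on gelatin with KnockOut Serum Replacement, a little FBS, and LIF, so MEFs differed from the others in medium as well as in cell type. The study compared MEFs with pluripotent cells, and control with Gldc knockdown mESCs. The donor cells and factors of the iPSC library are not given in the labels, NTC and shGldc are 1 line each, and 1 shRNA was used. With 1 library per group there was no replicate, no test was run, and a difference is called higher or lower only where it passed 2-fold on log2(FPKM + 0.1). Unless said otherwise, calls cover genes that reached 1 FPKM in either library of a comparison.

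Smooth muscle cells and myofibroblasts contract through bundles of actin and myosin. Alpha and gamma smooth muscle actin (Acta2, Actg2) form the thin filament, which tropomyosins (Tpm1, Tpm2), calponin 1 (Cnn1), and caldesmon (Cald1) wrap and restrain, and on which smooth muscle myosin heavy chain (Myh11) pulls, switched on through the regulatory light chain Myl9. Transgelin (Tagln, also known as SM22 alpha) binds and bundles actin. Most of these genes are classical targets of serum response factor (Srf), which binds a short element called the CArG box and works with cofactors of the myocardin family in muscle and of the ternary complex factor family after growth signals. Fibroblasts activated in culture or in a wound switch on Acta2 and Tagln, whereas Myh11 is the marker most restricted to mature smooth muscle.

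The letters of the Srf element were looked for in RefSeq promoter windows (GRCm38.p6, from 250 bases before to 50 after a transcription start). A CArG box has CC, a core of 6 bases that are all A or T, and GG, and a variant has 1 G or C in the core. Each class reads the same on both strands. Windows were at hand for 7 of the 10 genes (8 windows, of which Cald1 had 2). A match was found for 3 of these genes, Acta2, Myl9, and Srf, whose windows are shown because they hold these letters. CArG boxes and variants are in capitals. Among 32851 promoter windows of the same length, 1.63% held a CArG box with an intact core and 9.98% held this or a variant. A match is a description of the letters only.
Acta2 (chr19:34255324-34255623, minus strand): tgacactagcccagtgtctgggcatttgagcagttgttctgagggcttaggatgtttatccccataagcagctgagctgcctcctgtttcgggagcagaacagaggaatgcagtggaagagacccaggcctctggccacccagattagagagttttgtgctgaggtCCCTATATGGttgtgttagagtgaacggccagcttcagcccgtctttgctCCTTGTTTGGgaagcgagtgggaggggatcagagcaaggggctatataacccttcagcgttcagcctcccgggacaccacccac
Myl9 (chr2:156775214-156775513, plus strand): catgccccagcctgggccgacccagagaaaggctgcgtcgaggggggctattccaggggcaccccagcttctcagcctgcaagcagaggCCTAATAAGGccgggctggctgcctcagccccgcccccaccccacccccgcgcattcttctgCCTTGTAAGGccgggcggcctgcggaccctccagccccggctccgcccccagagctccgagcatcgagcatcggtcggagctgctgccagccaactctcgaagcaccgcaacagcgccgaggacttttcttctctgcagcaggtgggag
Srf (chr17:46556113-46556412, minus strand): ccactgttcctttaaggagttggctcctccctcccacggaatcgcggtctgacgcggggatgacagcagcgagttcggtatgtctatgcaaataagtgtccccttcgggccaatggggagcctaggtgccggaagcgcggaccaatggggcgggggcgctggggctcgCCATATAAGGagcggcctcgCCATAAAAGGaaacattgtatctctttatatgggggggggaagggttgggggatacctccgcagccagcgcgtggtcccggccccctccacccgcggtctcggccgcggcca

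Acta2 held 2 variants, which began 84 and 34 bases before the start. Myl9 held 1 intact box 161 bases before the start and 1 variant 99 bases before it. Srf itself held 2 intact boxes, 82 and 62 bases before its start. The windows of Cnn1, Tpm1, Tpm2, and Cald1 held neither form.

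**Figure D1:**
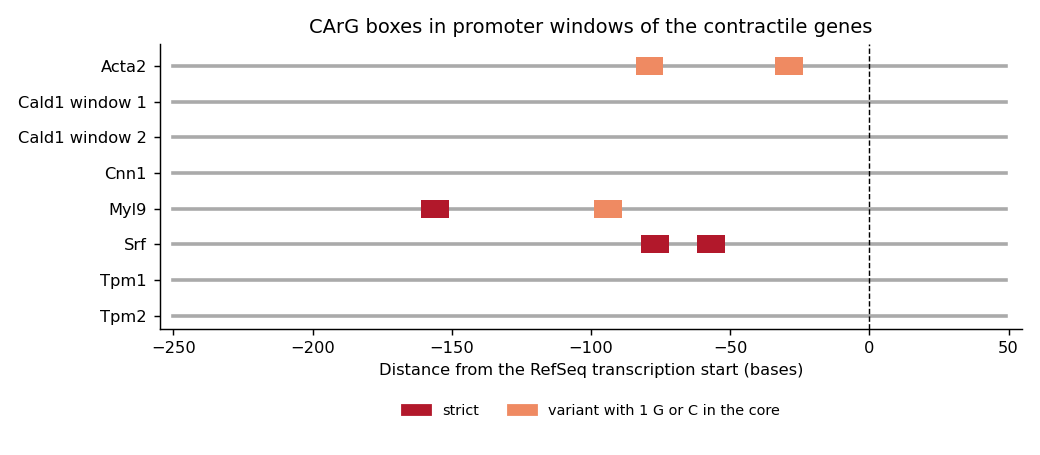
CArG boxes and variants in the promoter windows of the genes with a RefSeq window. The horizontal axis is the distance in bases from the transcription start (dashed line), each grey line is 1 window of 250 bases before to 50 after the start, dark red boxes are intact CArG boxes, and orange boxes are variants. Boxes appear for Acta2, Myl9, and Srf, all before the start.

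The labels were checked first. The knockdown target Gldc stood at 0.123 FPKM in MEFs, 70.8 in iPSCs, 59.7 in untreated V6.5 cells, 74.7 in NTC, and 2.07 in shGldc. All 8 pluripotency markers (such as Pou5f1 and Nanog) had an FPKM of at least 83.7 in the iPSC and V6.5 libraries, and 1 of 8 reached 1 in MEFs. All 8 fibroblast markers were above 1 in MEFs, with Col1a1 at 3672. All 8 macrophage markers were also above 1 in MEFs, with a summed FPKM of 192.0, against 9458 for the fibroblast markers. The FPKM of all genes summed to between 466650 and 576470 per library. The estimated depth was 22100000 to 24700000 fragments in MEFs, iPSCs, and untreated V6.5 cells. In NTC and shGldc it was 29000000 and 28800000, and these 2 estimates may be too high by up to 2 times. In bulk samples such as these, fewer cells of a type and less RNA per cell cannot be told apart.

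MEFs expressed the contractile genes at a high level, and all 10 genes were highest there. Together they made up 1.16% of the summed FPKM of MEFs (5429 of 466650), against 0.0143% in iPSCs, 0.0256% in untreated V6.5 cells, 0.00905% in NTC, and 0.0165% in shGldc. Acta2 ranked 13 and Tagln 38 of 24421 genes in MEFs. Myh11 was the lowest of the 10 in MEFs. It stood at 2.99 FPKM, rank 9007, and myocardin (Myocd), the cofactor of the smooth muscle programme, was at 0.188. Of 26 other smooth muscle and contractile genes, 23 passed 1 FPKM in MEFs, among them Smtn (39.1, and 22.1 to 30.8 in iPSCs and untreated V6.5 cells) and Lmod1 (15.4). Synpo2 (0.715), Kcnmb1 (0.383), and Ppp1r12b (0.318) did not.

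Among the pluripotent libraries, untreated V6.5 cells had the highest level of 7 of the 10 genes, and iPSCs, NTC, and shGldc of 1 each. NTC had the lowest level of 7 genes and shGldc of 3. Untreated V6.5 cells and the 2 shRNA lines come from separately made tables, so an order across them also holds any difference between the tables. To say which neighbours in the order of levels cannot be told apart, the spread between NTC and untreated V6.5 cells was used: over 12048 genes, their log2 ratios had a robust SD of 0.594. It is a spread across genes between 2 libraries of 1 cell line, not a replicate error.

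**Figure D2:**
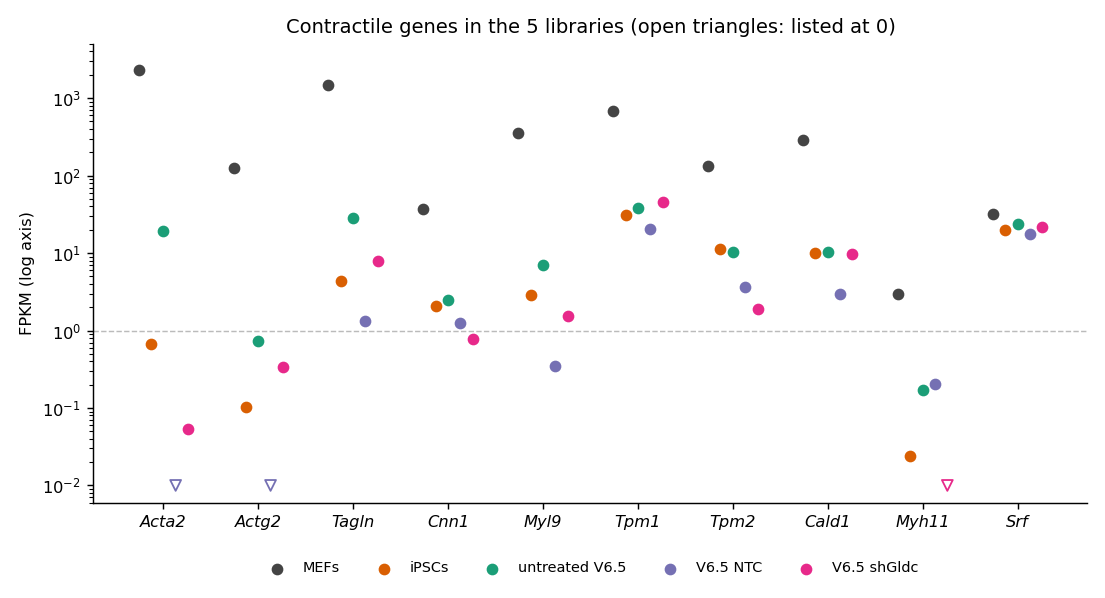
Level of each contractile gene in the 5 libraries. The vertical axis is FPKM on a log axis, each filled point is 1 library (colours in the legend), open triangles mark genes listed at 0, and the dashed line is an FPKM of 1. MEFs are highest for all 10 genes, from 2.99 (Myh11) to 2304 (Acta2), and Srf is the gene whose 5 libraries lie closest together.

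The actins of smooth muscle showed the widest span. Acta2 had an FPKM of 2304 in MEFs, 0.670 in iPSCs, 19.3 in untreated V6.5 cells, 0 in NTC, and 0.0541 in shGldc. The value in iPSCs amounted to about 30.2 fragments and the value in shGldc to about 3.17, so the latter is at the limit of what was measured, and 0 in NTC still allows an FPKM of up to 0.0508 (3 fragments, counting error only). If the depth of the shRNA libraries is overestimated, this limit is up to 2 times higher and the fragments in shGldc are fewer by the same factor. Untreated V6.5 cells thus stood apart from the other pluripotent libraries for Acta2. Actg2, the gamma actin of gut and other visceral smooth muscle, had an FPKM of 125.2 in MEFs, 0.102 in iPSCs, 0.733 in untreated V6.5 cells, 0 in NTC, and 0.343 in shGldc. It was below 1 in every pluripotent library.

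Of the actin-binding proteins, Tagln had an FPKM of 1479 in MEFs, 4.38 in iPSCs, 28.7 in untreated V6.5 cells, 1.31 in NTC, and 7.95 in shGldc. No neighbouring levels of Tagln lay within 0.594 of each other. Its exons overlap those of Pcsk7, a protease gene on the opposite strand (Pcsk7 had an FPKM of 8.25, 3.99, 3.10, 3.599, and 4.75 in the same order), and 58.3% of its 50-base stretches also occur in transcripts of Pcsk7 or Gm48529. Whether the counting used strand is not given, so reads of the overlap may have been shared between them and the low values of Tagln are uncertain. Cnn1 had an FPKM of 36.5 in MEFs, 2.05 in iPSCs, 2.47 in untreated V6.5 cells, 1.26 in NTC, and 0.773 in shGldc. Its levels in untreated V6.5 cells and iPSCs could not be told apart. Cald1, which is made as a long form in smooth muscle and a short form in other cells, had an FPKM of 283.9 in MEFs, 9.90 in iPSCs, 10.4 in untreated V6.5 cells, 2.98 in NTC, and 9.81 in shGldc. Its levels were alike within the spread in all pluripotent libraries but NTC, and gene-level values do not separate the forms.

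Of the tropomyosins, Tpm1 was the most abundant gene of the group in every pluripotent library. It had an FPKM of 680.0 in MEFs, 31.3 in iPSCs, 38.1 in untreated V6.5 cells, 20.4 in NTC, and 45.3 in shGldc. The order from shGldc through untreated V6.5 cells to iPSCs was within the spread at each step. Tpm2 had an FPKM of 132.9 in MEFs, 11.3 in iPSCs, 10.3 in untreated V6.5 cells, 3.61 in NTC, and 1.89 in shGldc. The levels in iPSCs and untreated V6.5 cells could not be told apart, and those in NTC and shGldc lay below them.

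Of the myosin genes, Myl9 had an FPKM of 351.8 in MEFs, 2.87 in iPSCs, 6.97 in untreated V6.5 cells, 0.351 in NTC, and 1.54 in shGldc. Each step in its order exceeded the spread. Myh11 had an FPKM of 2.99 in MEFs, 0.0239 in iPSCs, 0.170 in untreated V6.5 cells, 0.202 in NTC, and 0 in shGldc. It passed 1 in MEFs alone, and the iPSC value was worth about 3.46 fragments.

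Srf, the transcription factor, had an FPKM of 32.3 in MEFs, 19.6 in iPSCs, 23.8 in untreated V6.5 cells, 17.6 in NTC, and 21.5 in shGldc. No neighbouring levels of Srf could be told apart. Levels farther apart in the order could differ by more than the spread, as in iPSCs against MEFs (log2 ratio -0.72). With the same FPKM sum in each library, untreated V6.5 cells against MEFs also exceeded it (-0.68). Srf message ranged from 17.6 to 32.3 FPKM across the libraries, and Acta2 from 0 to 2304. Whether the level of Srf bears on that of Acta2 was not tested. Of its 6 cofactors 5 passed an FPKM of 1 in MEFs, and Mkl2, Elk3, and Elk4 were lower by 2-fold in both iPSCs and untreated V6.5 cells (of all genes, 21.3% and 23.3% were lower). Mkl1 (now Mrtfa), which senses free actin, had an FPKM of 17.3 in MEFs, 13.5 in iPSCs, 10.6 in untreated V6.5 cells, 14.1 in NTC, and 17.1 in shGldc. Its relative Mkl2 had 3.89, 1.40, 1.59, 1.47, and 2.80 FPKM in the same order. The ternary complex factor Elk3 had 22.8, 2.31, 3.002, 4.17, and 1.80 FPKM, whereas Elk1 stayed between 9.31 and 13.1, and Elk4 between 0.661 and 1.82. Myocd was listed at 0 in all 3 V6.5 libraries and at 0.0217 in iPSCs.

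When untreated V6.5 cells were compared with MEFs, 9 of the 10 contractile genes were lower and none was higher. Of 12840 genes, 23.3% were lower and 30.3% were higher in V6.5 cells. The median log2 ratio was -4.46 for the contractile genes and 0.25 for all genes. The lowest ratios were those of Actg2 (-7.23) and Acta2 (-6.89), whose levels in MEFs were 170.9-fold and 119.4-fold those in V6.5 cells. Tagln (-5.68), Myl9 (-5.64), Cald1 (-4.76), and Tpm1 (-4.15) were next. Cnn1 (-3.83), Tpm2 (-3.67), and Myh11 (-3.52) followed. Actg2 and Myh11 reached 1 FPKM in MEFs only, so neither could have been called higher. Myh11 was at -1.77 with a pseudocount of 1 and at -4.06 with 0.01. Srf alone did not pass 2-fold, with a log2 ratio of -0.44. Scaling all libraries to the same FPKM sum moved the median of all genes from 0.25 to 0.012 for V6.5 cells and from 0.31 to 0.015 for iPSCs. Relative to that of all genes, Srf was at -0.69 in V6.5 cells and at -1.03 in iPSCs.

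The same 9 genes were lower in iPSCs than in MEFs, where 21.3% of 13032 genes were lower and 31.5% were higher. Both comparisons share the MEF library. Against iPSCs, Acta2, Actg2, and Myh11 reached 1 FPKM in MEFs only, so none of them could have been called higher. The median log2 ratio was -4.74 for the contractile genes and 0.31 for all genes. Acta2 had the lowest ratio of all 13032 genes (-11.55, or 3437-fold), also with a pseudocount of 1, although with a pseudocount of 0.01 it was at place 16. Actg2 (-9.28), Tagln (-8.37), and Myl9 (-6.89) were next, Cald1 was at -4.83, Myh11 at -4.64, Tpm1 at -4.44, Cnn1 at -4.09, and Tpm2 at -3.55. Actg2 and Myh11 rested on about 3 fragments in iPSCs, and with a pseudocount of 1 or 0.01 they were at -6.84 or -10.13 and at -1.96 or -6.47. Srf was at -0.72, and when libraries were scaled to the same FPKM sum or centred it passed 2-fold and all 10 genes were lower. Acta2 and Tagln thus lay farther below MEFs in iPSCs than in V6.5 cells, whereas the ratios of the tropomyosins in the 2 comparisons were close.

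Most of 26 other genes of the contractile apparatus were also lower, by less. Of the 23 that passed an FPKM of 1, 16 were lower and 3 were higher in untreated V6.5 cells (median -2.25), and 16 were lower and 1 was higher in iPSCs (median -1.89). Fhl2, a cofactor that binds Srf, was lowest in both (98.4 FPKM in MEFs, 1.36 in V6.5 cells, 0.994 in iPSCs). Cnn2, a calponin found outside muscle, was at 747.5, 45.7, and 31.97 FPKM in the same order, and Tns1, a focal adhesion protein, at 40.03, 4.31, and 1.59. Csrp2, a LIM protein of smooth muscle, went the other way, at 56.0 in MEFs, 290.2 in V6.5 cells, and 142.8 in iPSCs. Ppp1r14a, which inhibits myosin phosphatase, was at 30.4, 133.4, and 52.8, and Tpm3, a tropomyosin of most cells, at 58.7, 144.9, and 103.5. Of the 17 TGF-beta and myofibroblast matrix genes, 15 were lower in each (medians -3.51 and -4.15). The lowest were the matrix gene Postn (203.0 FPKM in MEFs, 1.66 in V6.5 cells, 0.0185 in iPSCs), the ligand Tgfb3 in V6.5 cells (73.1 and 0.831), and the collagen cross-linker Lox in iPSCs (347.6 and 0.105). The highest were Smad7, a feedback inhibitor (7.41, 11.7, and 13.6), and Skil (7.60, 4.07, and 3.91). Beside both lists, 23.3% of all genes were lower and 30.3% were higher in V6.5 cells (median 0.25). In iPSCs these shares were 21.3% and 31.5% (median 0.31).

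Srf has a second class of targets, the immediate early genes of the growth response, of which 8 were read. Among the 7 that passed, 5 were lower and 2 higher in untreated V6.5 cells than in MEFs (in iPSCs 4 and 2). Of all genes, 23.3% and 21.3% were lower in the 2 comparisons and 30.3% and 31.5% higher, so 2 of 7 higher is near the share of all genes. Egr3, Egr1, Egr2, Junb, and Fos were lower in V6.5 cells. Egr1 had an FPKM of 54.4 in MEFs, 5.73 in V6.5 cells, and 22.8 in iPSCs, Egr2 had 3.08, 0.265, and 0.183, and Egr3 had 1.38, 0.0252, and 0.0452. Ier2 (51.6, 210.3, and 155.8) and Mcl1 (48.1, 148.0, and 209.3) were higher. Sarcomere genes of striated muscle stayed low, with a median FPKM over 16 genes of 0.0877 in MEFs and at most 0.791 in the other libraries, and a maximum of 20.6 (Myl4 in iPSCs). Of the 8 that passed in untreated V6.5 cells against MEFs, 6 were higher, led by Actn2 (0.108 FPKM in MEFs and 2.49 in V6.5 cells) and Myh6 (0.0629 and 1.41), and Tnnt2 (7.10 and 0) and Tnnc1 (1.56 and 0.340) were lower. Of the skeletal myoblast markers, Des alone passed 1. Of the 7 pericyte markers, 4 passed 1 in MEFs, namely Pdgfrb (104.3), Mcam (54.2), Cspg4 (27.4), and Notch3 (5.25), and Rgs5, Kcnj8, and Abcc9 did not. Of the endothelial markers 2 of 6 and of the cardiomyocyte markers 1 of 7 reached 1 in MEFs, with summed FPKM of 12.2 and 8.07. In untreated V6.5 cells over MEFs, 1 of 3 endothelial markers that passed was higher and 2 were lower, and of 5 cardiomyocyte markers 4 were higher and 1 was lower. Each of these markers reached 1 FPKM only in the library where it was higher, so the filter allowed only the direction seen. The same holds for Egr2, Egr3, and the sarcomere genes that passed, except Myl4 (2.82 FPKM in MEFs and 6.92 in V6.5 cells).

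The composition of each family differed between MEFs and the pluripotent libraries, and the summed FPKM of all 6 families was highest in MEFs, so a larger share in pluripotent cells need not be a higher level. Among 6 actins, Acta2 made up 31.6% of the summed FPKM in MEFs, 0.033% in iPSCs, 0.834% in untreated V6.5 cells, 0.00174% in shGldc, and was listed at 0 in NTC. The cytoplasmic actins Actb and Actg1 were abundant in every library (820.6 to 1940 and 1205 to 2897 FPKM), Acta1 ranged from 0 to 26.1, and Actc1 was at most 0.453. Actg1 shares 37.4% and Actb 9.12% of its 50-base stretches with other genes, so their split is uncertain, whereas Acta2 shares 0.326%. Muscle actin was thus a large part of the actin message in MEFs and a trace in pluripotent cells.

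Among the tropomyosins, Tpm1 held 49.8% in MEFs, 17.6% in iPSCs, 15.9% in untreated V6.5 cells, 9.52% in NTC, and 19.5% in shGldc. Tpm3 held 4.3% in MEFs and 58.2% to 76.5% in the pluripotent libraries, and its level was 58.7 FPKM in MEFs and 103.5 to 163.9 there, past 2-fold over MEFs in untreated V6.5 cells but not in iPSCs. Tpm1 has muscle and nonmuscle forms that gene-level values do not separate. Tagln held 72.3% of the 2 transgelins in MEFs and 1.18% (NTC) to 10.2% (untreated V6.5 cells) elsewhere, the rest being Tagln2, whose level was 565.6 FPKM in MEFs and 94.6 to 251.9 elsewhere. Cnn3 held 25.3% of the 3 calponins in MEFs and 83.7% to 91.3% elsewhere, although its level was 264.9 FPKM in MEFs and 182.8 to 248.0 elsewhere, while Cnn1 was a small part in all (0.377% to 3.48%). Myl9 held 35.6% of 3 regulatory light chains in MEFs and 0.111% to 1.98% elsewhere. Myh11 was 0.613% of 4 myosin II heavy chains in MEFs, where Myh9 (414.5 FPKM) dominated.

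**Figure D3:**
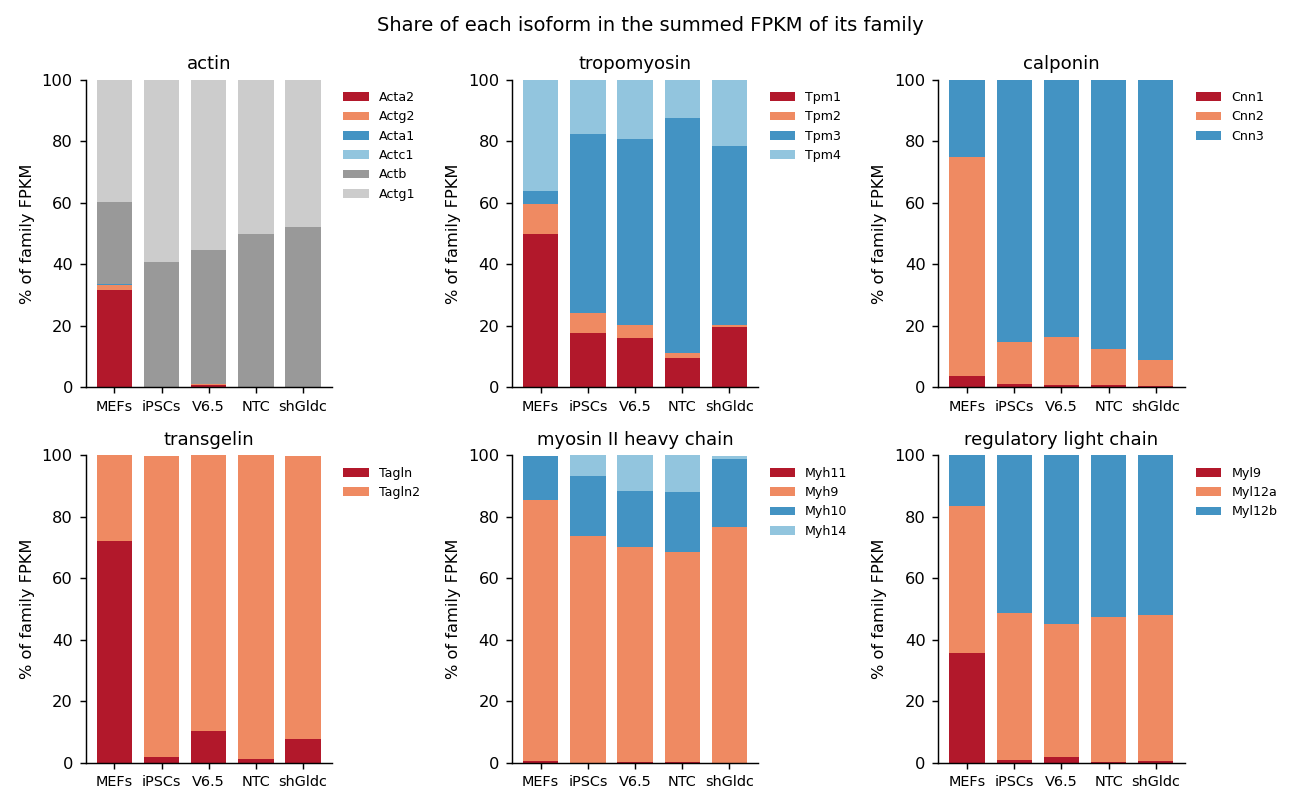
Isoform composition of 6 contractile families. The horizontal axis is the library, and each bar stacks the percentage of the family's summed FPKM held by each isoform. The shares of Acta2, Tpm1, Tagln, and Myl9 are large in MEFs (31.6%, 49.8%, 72.3%, and 35.6%) and smaller in all pluripotent libraries, whereas Myh11 and Cnn1 are small throughout.

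Between the pluripotent lines of the first table, Acta2, Tagln, and Myl9 were lower in iPSCs than in untreated V6.5 cells. They were 3 of the 8 contractile genes that passed, whereas 7.44% of 12323 genes were lower and 10.1% were higher. Their log2 ratios were -4.65, -2.68, and -1.25. The other 5 lay between -0.28 (Tpm1 and Srf) and 0.13 (Tpm2), with Cnn1 at -0.26 and Cald1 at -0.07, all within the spread of 0.594, and the median was -0.28 against 0.04 for all genes. Actg2 and Myh11 were below 1 in both. Acta2 reached 1 FPKM in untreated V6.5 cells only, so it could not have been called higher.

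Of the 8 fibroblast markers, Col1a1, Col1a2, and Dcn passed 2-fold in untreated V6.5 cells over each of the 3 other pluripotent libraries, and Thy1, Pdgfra, Vim, Fbn1, and Lum did not or stayed below 1 FPKM. Col1a1 had an FPKM of 20.5 in untreated V6.5 cells, 1.68 in iPSCs, 1.24 in NTC, and 0.125 in shGldc. Col1a2 had 15.3, 0.857, 0.225, and 0.621, and Dcn had 1.93 and was listed at 0 in the other 3. Thy1 had 5.63 in untreated V6.5 cells, 8.30 in iPSCs, 6.95 in NTC, and 1.11 in shGldc, and Pdgfra had 0.834, 0.810, 0.143, and 1.36. As a percentage of the MEF level, the 8 fibroblast markers in untreated V6.5 cells ranged from 0.559% (Col1a1) to 5.28% (Pdgfra) with a median of 2.22%, and none was at 0. The contractile genes ranged there from 0.585% (Actg2) to 73.6% (Srf) with a median of 4.64%, Acta2 being at 0.837%. The medians of the fibroblast markers were 0.156% in iPSCs (Dcn at 0), 0.288% in NTC (Dcn and Lum at 0), and 0.242% in shGldc (Dcn and Lum at 0). Those of the contractile genes were 2.15%, 1.88%, and 0.978%. The summed FPKM of the fibroblast markers was 116.5 in untreated V6.5 cells, 18.4 in iPSCs, 163.3 in NTC, and 133.5 in shGldc, of which Vim alone held 70.2, 5.79, 153.9, and 129.0. The part of fibroblast messages in the levels of Acta2, Tagln, and Myl9 in untreated V6.5 cells was not tested.

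**Figure D4:**
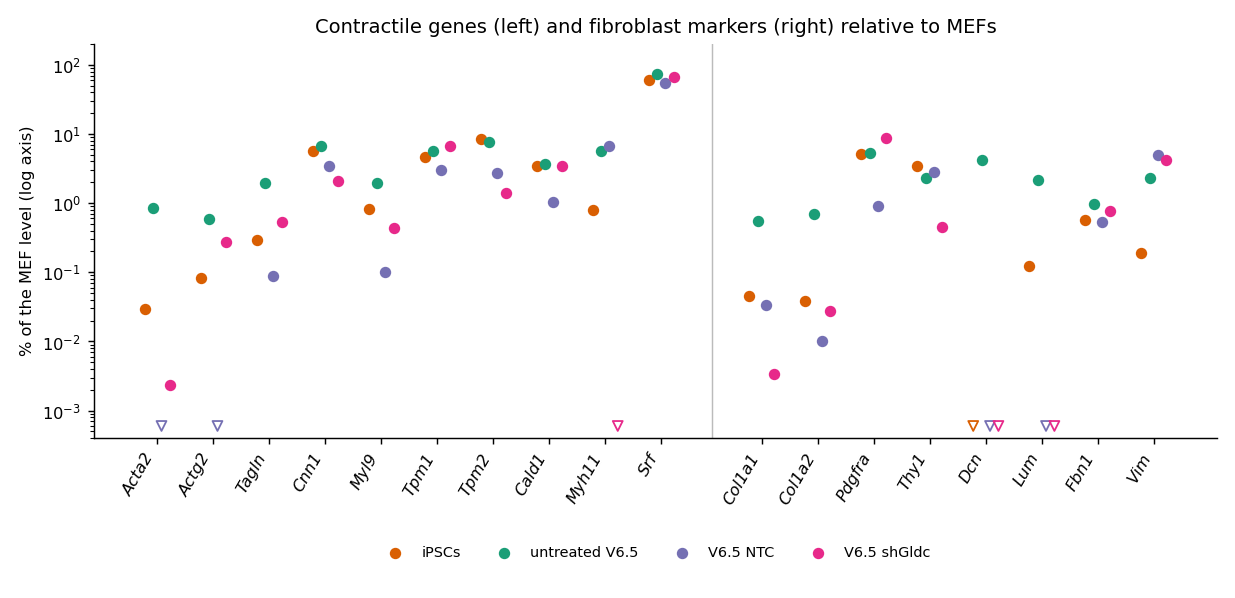
Contractile genes (left of the line) and fibroblast markers (right) as a percentage of their MEF level. The vertical axis is a log axis, each point is 1 library (NTC and shGldc come from a separately made table), and open triangles mark genes listed at 0. Untreated V6.5 cells lie above the other pluripotent libraries for Acta2 (0.837%) and for Col1a1 (0.559%), Col1a2, Dcn, Lum, and Fbn1, but not for Vim, Thy1, or Pdgfra.

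The genes with the most similar pattern over the 5 libraries were found by the root mean square difference of centred log2(FPKM + 0.1) among 13656 genes, as a description. Nearest to Acta2 were Col3a1 (0.957), Lox (0.975), and Col1a2 (1.01), genes of the collagen matrix. None was a close match, since the nearest gene of every other contractile gene was at 0.021 to 0.395. Col3a1 and Lox were listed at 0 in NTC and shGldc. Nearest to Tagln were Prss23 (0.357), Twist2 (0.396), and Ly6a (0.489). Myl9 was nearest to Fhl2 (0.315), Tgfb3 (0.481), and Mfap4 (0.520), and Actg2 to Cdh11 (0.395), Cxcl12 (0.507), and Prss23. Cnn1 was nearest to its relative Cnn2 (0.157), then Col7a1 and Cpe. For the remaining genes, the distance to the nearest gene was 0.157 for Tpm1 (Lgals1), 0.231 for Tpm2 (Sertad4), 0.221 for Cald1 (Ifi27l2a), 0.182 for Myh11 (Ncf4), and 0.021 for Srf (Crip2).

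Within the second table, Gldc knockdown was compared with the NTC. Among the contractile genes that reached 1 FPKM in either library, Tagln, Myl9, Cald1, and Tpm1 were higher in shGldc and none was lower. These were 4 of the 7 that passed, whereas 8.97% of 11969 genes were higher and 7.68% were lower. Tagln was at 1.31 FPKM in NTC and 7.95 in shGldc (6.07-fold, log2 ratio 2.51). Myl9 was at 0.351 and 1.54 (log2 ratio 1.87), Cald1 at 2.98 and 9.81 (3.29-fold, 1.68), and Tpm1 at 20.4 and 45.3 (2.22-fold, 1.15). The fold changes are of FPKM and the log2 ratios of FPKM + 0.1. Myl9 was a low gene that reached 1 FPKM in shGldc only, so it could not have been called lower. With a pseudocount of 1 its log2 ratio was 0.91, under 2-fold, and the count became 3 of 7.

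The other 3 genes that passed lay within 2-fold. Tpm2 was at -0.90 and Cnn1 at -0.64, so Tpm1 and Tpm2 stood on opposite sides of 0. Srf was at 0.28. The median was 1.15 for the contractile genes that passed and 0.04 for all genes. Acta2, Actg2, and Myh11 were below 1 in both libraries and did not pass. Actg2 was listed at 0 in NTC and stood at 0.343 FPKM (about 13.2 fragments) in shGldc, the same direction as the 4 genes. Myh11 was at 0.202 FPKM (about 38.5 fragments) in NTC and listed at 0 in shGldc, the opposite direction. The counts of fragments share the uncertainty in depth, and no ratio is given for these genes. Without the filter, 5 of the 10 contractile genes were higher and 1 was lower.

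Among the other 26 contractile genes, 19 passed and none was higher or lower by 2-fold (median -0.03). Tpm4 (26.3 and 49.7 FPKM in NTC and shGldc) and Myl6 (257.8 and 413.6), a light chain, had the highest ratios, and Des (13.5 and 6.90) and Tns1 (6.03 and 3.58) the lowest. Among 10 TGF-beta and matrix genes that passed, Ctgf (9.15 and 22.7) and Cyr61 (11.2 and 27.3), targets of YAP and of Srf with its Mkl cofactors, were higher, and the ligand Tgfb1 (12.4 and 3.37) was lower, with Smad7 next lowest (26.3 and 16.0). Elk3 was the 1 cofactor that was lower (4.17 and 1.80), and Fos the 1 immediate early gene that was higher (0.458 and 1.66), with Egr1 next (3.97 and 6.46) and Junb (17.5 and 12.5) and Ier2 (227.5 and 183.0) lowest. Fos reached 1 FPKM in shGldc only, so it could not have been called lower. Myh14, a nonmuscle heavy chain of epithelia, was at 12.7 and 1.10, while Myh9 and Myh10 were level (73.1 and 73.0, and 20.7 and 21.1). Beside these lists, 8.97% of all genes were higher and 7.68% were lower (median 0.04).

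Markers of other cell types were read beside these values. Of all genes, 8.97% were higher and 7.68% were lower in shGldc than in NTC. Of the fibroblast markers, Col1a1 (1.24 and 0.125 FPKM in NTC and shGldc) and Thy1 (6.95 and 1.11) were lower and Pdgfra (0.143 and 1.36) was higher, with Dcn and Lum at 0 in both. Of the 6 epithelial markers, 4 were higher in shGldc, with Krt8 at 9.09 and 79.4, Krt18 at 11.9 and 95.4, and Krt19 at 1.36 and 12.8. Cdh1 (89.7 and 79.4) and Epcam (37.7 and 49.9) had the lowest ratios. The summed FPKM of all 6 was 169.8 in NTC and 361.3 in shGldc. Of the endothelial markers 2 of 6 passed, and Tie1 was higher (0.188 and 3.09) while Pecam1 was not (21.1 and 27.7). Of 3 cardiomyocyte markers that passed, Myh6 was lower (2.05 and 0.697). Pdgfra and Tie1 reached 1 FPKM in shGldc only, and Col1a1 and Myh6 in NTC only, so the filter allowed only the direction seen. None of the 3 pericyte, 1 macrophage, and 1 skeletal myoblast markers that passed was past 2-fold. The part of these markers in the levels of Tagln, Myl9, Cald1, and Tpm1 was not tested. The summed FPKM of the 8 pluripotency markers was 4295 in NTC and 3753 in shGldc. None of them passed 2-fold. The log2 ratio was below 0 for 7 of 8, with a median of -0.56 against 0.04 for all genes, and above 0 for Dppa5a (1440 and 1792).

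**Figure D5:**
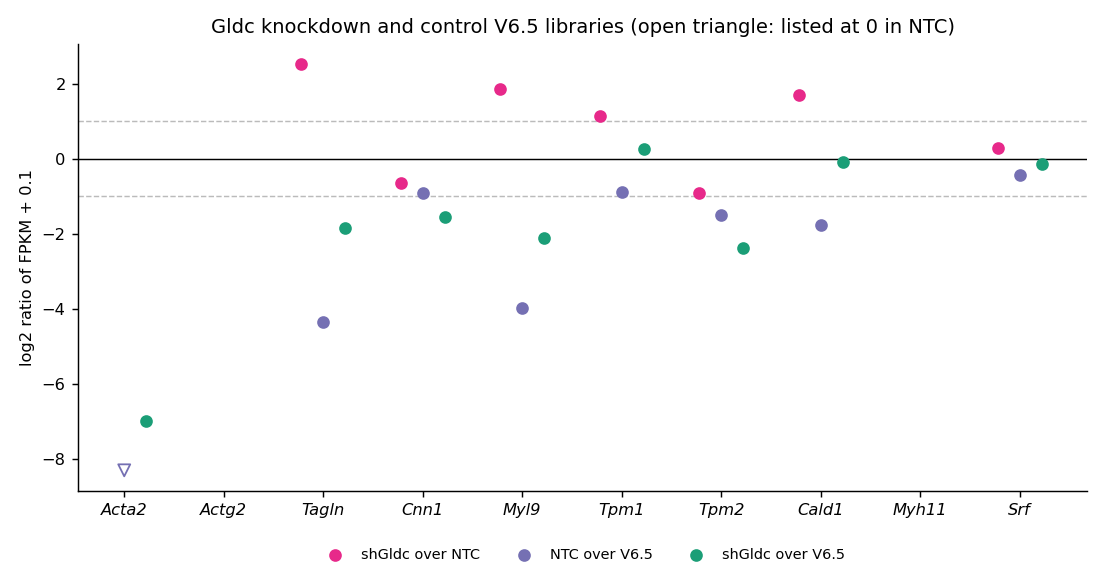
Log2 ratios of FPKM + 0.1 for the contractile genes that passed an FPKM of 1, in 3 comparisons of the V6.5 libraries. Dashed lines mark 2-fold, the open triangle marks Acta2, listed at 0 in NTC, whose position is not a ratio, and comparisons with untreated V6.5 cells cross separately made tables. Tagln, Myl9, Cald1, and Tpm1 lie above 2-fold in shGldc over NTC (1.15 to 2.51), and no contractile gene lies above 2-fold over untreated V6.5 cells.

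Set beside untreated V6.5 cells, the 2 shRNA lines had lower levels of most contractile genes. In NTC, 5 of 8 were lower and none was higher, whereas 10.3% of 12048 genes were lower and 4.99% were higher. They were Acta2 (listed at 0), Tagln (log2 ratio -4.35), Myl9 (-3.97), Cald1 (-1.77), and Tpm2 (-1.49), with Cnn1 at -0.92, Tpm1 at -0.90, and Srf at -0.43. In shGldc, 5 of 8 were also lower and none higher, against 13.9% lower and 9.89% higher of 12237 genes. They were Acta2 (-6.98), Tpm2 (-2.39), Myl9 (-2.11), Tagln (-1.84), and Cnn1 (-1.56). With a pseudocount of 1 or 0.01, Acta2, which held about 3.17 fragments in shGldc, was at -4.27 or -8.23. With a pseudocount of 1, Cnn1 was at -0.97 and the count became 4. The medians were -1.63 in NTC and -1.70 in shGldc, against -0.07 and -0.02 for all genes. Acta2 in both comparisons, Myl9 in that with NTC, and Cnn1 in that with shGldc reached 1 FPKM in untreated V6.5 cells only. There they could not have been called higher.

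The genes that were higher in shGldc than in NTC were not above their level in untreated V6.5 cells by 2-fold, with Tpm1 at 0.25, Cald1 at -0.08, and Myl9 and Tagln lower. All 3 comparisons share libraries in pairs, so they are not independent, and the 2 with untreated V6.5 cells also cross tables. NTC, the common reference of the knockdown comparison, was the library with the lowest level of Tagln, Myl9, Cald1, and Tpm1 of all 5. Untreated V6.5 cells had higher Col1a1, Col1a2, and Dcn than both shRNA lines, but not Vim, and the part of these messages was not tested. The shRNA vector and the separate making of the tables cannot be told apart.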

How the data were processed

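Per the labels and the study's methods, TRIzol RNA was made into libraries with a NEBNext Ultra kit and sequenced on an Illumina HiSeq X instrument. The authors mapped reads to mm10 with TopHat2 2.1.0, assembled transcripts with StringTie 1.3.4d and computed expression with Ballgown; the submitters' processing notes also list SAMtools 1.7 and mm9, with no role. The annotation, strand setting and filters are not given in the sources used here. The authors deposited FPKM in 2 tables, made separately (MEFs, iPSCs and untreated V6.5 cells; NTC and shGldc).

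FPKM does not correct for RNA composition. Log2 ratios were differences of log2(FPKM + 0.1) for genes that reached 1 FPKM in either library of a comparison. The ratio script was tested on simulated data. Depth was estimated from the steps between low values of 4373 genes with 1 transcript (GENCODE M21, mm10). For NTC, 21 low values lay at multiples of the chosen step and 26 at those of a step 2 times its size, so its depth is uncertain by that factor.

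All 10 genes are reported. The rule set for other genes named all Srf cofactors, all other actins, the 2 highest and 2 lowest ratios of a list and the 3 nearest patterns per gene. It was applied to the contractile, TGF-beta and immediate early lists against MEFs and to these and the epithelial list in shGldc over NTC. The remaining lists are given by counts or ranges for some comparisons only, and for 5 genes 1 nearest pattern is given. Other list genes were named after their values were seen. The genes and lists were chosen with earlier results of these data known. Python 3.11.15, numpy 2.4.6, pandas 2.3.3 and matplotlib 3.10.9 were used.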

Additional observations from a re-analysis of the deposited data

Results flagged for a closer look

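Fos, an immediate early target of Srf, was picked out because its ratios over MEFs had opposite signs in the pluripotent lines. Its log2 ratio over MEFs was -1.03 in untreated V6.5 cells and 0.21 in iPSCs, from an FPKM of 4.403 in MEFs, 2.099 in untreated V6.5 cells and 5.11 in iPSCs. Both ratios share the MEF library, each rests on 1 library per group, and the difference was not tested. The iPSC ratio lay within the spread of 0.594 and below the median of all genes (0.31), so relative to all genes both ratios were negative and no opposite direction is shown.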

How the results depend on the processing

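Alternatives were a pseudocount of 1 or 0.01, the same FPKM sum in each library, centring on the median of all genes, no filter or one at 5 FPKM, a fold line of 3, and the mean in place of the median. Leaving out genes listed at 0 was added after seeing the data. Of the medians and counts of the contractile genes under these settings, 91 stayed within the spread of 0.594 or 1.5 times the count, 5 did not, and no log2 ratio of a contractile gene changed sign. The spread is that of single genes and is a wide limit for a median. The median of iPSCs over untreated V6.5 cells went from -0.28 to -0.70 without the filter and still counted as within it. All 10 genes were lower in iPSCs than in MEFs with the same FPKM sum or with centring. The median of iPSCs over MEFs became -5.66 with a pseudocount of 0.01 and its mean was -5.83. The mean was -1.17 for iPSCs over untreated V6.5 cells, where 5 genes passed 2-fold without the filter, and -2.68 for NTC over untreated V6.5 cells. Of single genes, 28 ratios moved by more than the spread and 212 did not, and of the 28, 11 were with a pseudocount of 0.01 and 17 with 1. The cause of these shifts was not tested. No paired analysis was possible because each group had 1 library and the labels give no replicate numbers. Leaving out a replicate was not possible either. Depth limits Acta2, Actg2 and Myh11, which held about 3 fragments or were listed at 0 in at least 1 pluripotent library each.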
